A study of Mus musculus with 8 samples.

Results

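The genes of the heat shock protein and DnaJ chaperone families were compared between induced cardiomyocytes carrying a short hairpin RNA against Grhl3 and induced cardiomyocytes carrying shNT, which was treated as the control hairpin. They were taken by name alone: every gene of the count table named as a member of the Hspa, Hspb, Hspd, Hspe, Hsph, Hsp90a, Dnaja, Dnajb or Dnajc series. Pseudogene names were left out, as were Hspa5, Dnajb9, Dnajb11 and Dnajc3, which serve the endoplasmic reticulum. The rule gave 67 of the 53921 rows that name a gene, 27 with an Hsp name and 40 with a Dnaj name, and no measured value entered it. These genes had been proposed as cytosolic chaperones, but 8 of them were listed here as mitochondrial and 8 as of the endoplasmic reticulum. They are therefore described as the named families and by compartment.

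Induced cardiomyocytes are fibroblasts pushed towards a heart muscle identity by forced expression of transcription factors. In all 4 RNA-seq libraries the cells were harvested on day 5 after receiving MGT, the usual short name of the trio Mef2c, Gata4 and Tbx5. They carried shGrhl3 (2 libraries) or, as the control, shNT (2 libraries), with the hairpins brought in by lentivirus per the series' design text. Grhl3 belongs to the Grainyhead-like factors, regulators of epithelia, and the series asks how it bears on the matrix and fate of fibroblasts under reprogramming. The labels add the word Neo to the cell type without saying what it stands for, and they do not state whether the libraries of a group are separate cultures. P-values therefore rest on the spread between 2 libraries a group, and that spread may be technical. The hairpin columns of the table are headed shGrhl1 and shGrhl2, which could be taken for hairpins against Grhl1 and Grhl2. They were read as replicates 1 and 2 of shGrhl3, the only Grhl hairpin that the labels name.

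Molecular chaperones bind unfolded or partly folded proteins and let them go again, mostly in cycles driven by ATP. DnaJ proteins carry clients to Hsp70 and switch on its ATPase, Hsp110 and BAG proteins recharge Hsp70 with ATP, and Hsp90 takes over clients such as kinases, hormone receptors and muscle myosin at a later stage. Small heat shock proteins hold unfolding proteins without ATP, and in striated muscle they guard the sarcomere and its filamin anchors. The heat shock factor Hsf1 switches on the inducible members by binding repeats of the unit GAA, read in alternate directions, in their promoters.

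The libraries held 19823397 and 18609743 counts with shGrhl3 and 19257692 and 16104243 with shNT. Grhl3 itself was at 11 and 19 counts with shGrhl3 and at 31 and 14 with shNT, with overlapping groups and a log2 fold change of -0.69 (SE 0.56, edgeR adjusted p = 0.362), so the hairpin labels could not be checked from its mRNA. Summed over 10 cardiomyocyte markers, the level was 7098 and 7196 CPM (counts scaled to a common library size, with TMM factors) with shGrhl3, against 5632 and 5616 CPM with shNT. None of the 10 was at 0 in all libraries, 4 of them rose and 1 fell. The sum over 8 cardiac fibroblast markers was 11337 and 12189 CPM with shGrhl3, against 10171 and 10381 CPM with shNT, with 1 marker higher and 3 lower. The sum over 8 leukocyte markers was 147 and 118 CPM with shGrhl3, against 648 and 893 CPM with shNT, and of the 7 tested 6 fell and Csf1r rose. Marker sums of other cell types were low: 39.2 and 35.0 CPM with shGrhl3 against 48.9 and 44.1 CPM with shNT for 5 endothelial genes, and 19.9 and 17.4 CPM with shGrhl3 against 23.9 and 24.7 CPM with shNT for 4 smooth muscle and pericyte genes. The 4 skeletal muscle genes summed to 15.6 and 15.3 CPM with shGrhl3, against 3.40 and 1.89 CPM with shNT, with Myod1 at 0, and the 4 epithelial genes to 6.18 and 4.60 CPM with shGrhl3, against 3.45 and 2.64 CPM with shNT. The 18S rRNA gene Rn18s took 0.0959% and 0.156% of counts with shGrhl3, against 0.573% and 2.00% with shNT. With the rRNA-related genes left out, the median log2 fold change of the chaperone genes was 0.17, against 0.16 with them kept. The part of the marker differences, or of what set the rRNA shares apart, in the chaperone values was not tested.

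More of the chaperone genes rose than fell with shGrhl3, and the shifts were small. Of the 67 genes, 61 had enough counts to test, and of these 19 were higher, 7 were lower and 35 did not pass (edgeR quasi-likelihood test, Benjamini-Hochberg adjusted over all genes, threshold 0.05). The called share was 42.6%, against 35.0% of the 15324 genes tested in all. Higher calls made up 31.1% of the tested members, against 17.1% of all genes, and lower calls 11.5%, against 17.9%. The median log2 fold change of the members was 0.16, against -0.01 over all genes, and 41 of the 61 were above 0. No called member reached a 2-fold difference, which 1144 of all genes did. In 43 of the 61 the 2 shGrhl3 libraries lay wholly above or below the 2 shNT libraries, as they did in 10191 of the 15324. In bulk RNA, a gene's lower level can mean fewer cells of a type or less RNA per cell, which cannot be told apart. The counts of calls lean on single libraries: without shNT replicate 1, 11 members were higher and 3 lower, and without shNT replicate 2, 13 were higher and 3 lower.

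**Figure D1:**
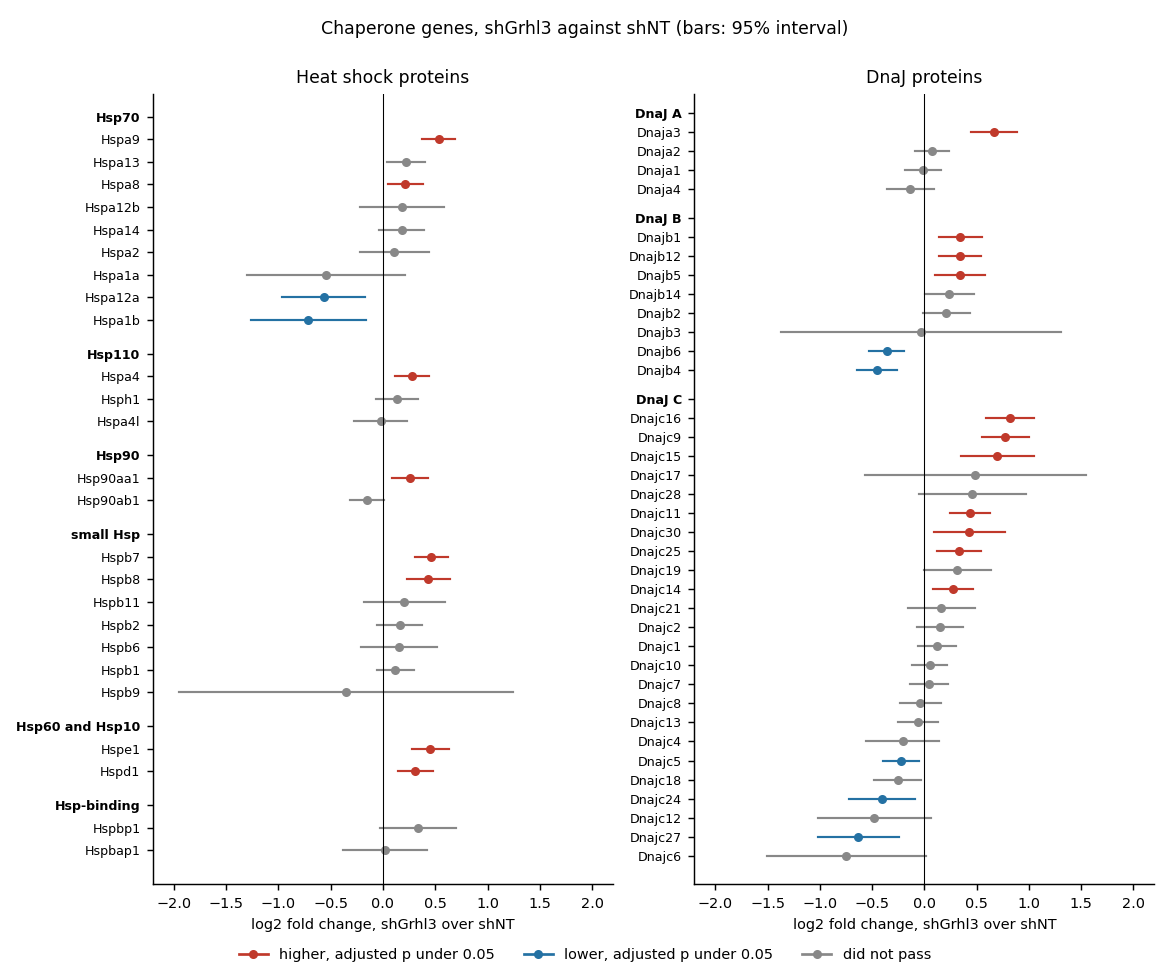
The log2 fold change of each of the 61 tested chaperone genes, shGrhl3 over shNT, is plotted on the x axis with its 95% interval as a bar; genes run down the page by family. Red points (19) passed the test as higher, blue points (7) as lower and grey points (35) did not pass. The called values lie between -0.71 for Hspa1b and 0.82 for Dnajc16.

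Of the 8 members listed as mitochondrial, 7 passed as higher, where 17.1% of all genes did, and the remaining one, Dnajc19, did not pass. Their median log2 fold change was 0.44. Their summed level was 1286 and 1273 CPM with shGrhl3 (mean 1279 ± 9.68, SD, n = 2), against 925 and 924 CPM with shNT (924 ± 0.426, SD, n = 2), 38.4% more. The 8 were put together by compartment after their values had been seen, so their count and median are a description. The list may be incomplete, and both depend on it. Dnajc28 (0.46) and Dnajc4 (-0.21), for instance, were not put on it and did not pass. Of the mitochondrial chaperones and co-chaperones outside the named families, Trap1 rose, while Clpb (0.29, edgeR adjusted p = 0.0586), Grpel1 (0.23, edgeR adjusted p = 0.0721), Grpel2 (-0.05) and Hscb (-0.02) did not pass. Mitochondrially encoded genes took 2.49% and 2.52% of counts in the same shGrhl3 libraries, against 2.12% and 2.21% in the shNT libraries, and whether that share has a part in the rise was not tested.

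Hspa9 (mortalin), the Hsp70 of the mitochondrial matrix that pulls imported proteins through the inner membrane, had 660.5 and 672 CPM with shGrhl3, against 460.2 and 461 CPM with shNT. The groups stood well apart while the libraries within a group lay close together (log2 fold change 0.53, SE 0.08, edgeR adjusted p = 9.13e-06). Dnaja3 (Tid1; chromosome 16, 4684070 to 4707695), its DnaJ partner in the matrix, had 68.2 and 71.5 CPM with shGrhl3 and 39.8 and 48.4 CPM with shNT. Every shGrhl3 value again exceeded every shNT value (log2 fold change 0.67, SE 0.11, edgeR adjusted p = 3.1e-05). Both calls held under all 13 other ways of processing the counts.

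Hspd1 (Hsp60; chromosome 1, 55077833 to 55088243) forms the barrel of the matrix chaperonin, and its cofactor Hspe1 (Hsp10; chromosome 1, 55088148 to 55091317) the lid. The RefSeq spans of this head-to-head gene pair overlap by 96 bases, and the sources used here do not give the strand setting of the counting. Hspd1 was at 301 and 285 CPM with shGrhl3, against 240.0 and 233 CPM with shNT (log2 fold change 0.31, SE 0.08, edgeR adjusted p = 0.00439). Hspe1 was at 128 and 127 CPM with shGrhl3, against 94.6 and 91.5 CPM with shNT (log2 fold change 0.45, SE 0.09, edgeR adjusted p = 0.000259). Neither gene's groups overlapped, and the counts of Hspd1 over those of Hspe1 gave a ratio of 2.34 and 2.25 with shGrhl3, against 2.54 in both shNT libraries. The Hspd1 call was lost without shNT replicate 2 (edgeR adjusted p = 0.0835), and the Hspe1 call was kept throughout.

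The promoter windows of these paired genes share 1 heat shock element, shown here because it is the longest of those found in the members' windows and is shared by 2 genes that rose. RefSeq's GRCm38.p6 windows (250 bases before to 50 after each start) were searched for 3 units in a row, spelled GAANNTTCNNGAA or TTCNNGAANNTTC on either strand. The element at chr1:55088059-55088076 has 4 units. It lies before the Hspe1 start and before the inner of the 2 annotated Hspd1 starts, but after the outer Hspd1 start, whose own window holds no element. Each line below gives chr1:55088053-55088082, 5′ to 3′ on that gene's strand, with the element in capitals.
Hspd1 (minus strand): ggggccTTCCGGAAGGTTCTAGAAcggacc
Hspe1 (plus strand): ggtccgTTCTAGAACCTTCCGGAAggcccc
A match is a description of letters and not a site of binding.

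Among the other mitochondrial members, Dnajc15, a DnaJ protein of the inner membrane, had 15.3 and 13.3 CPM with shGrhl3, against 9.30 and 8.31 CPM with shNT (log2 fold change 0.70, SE 0.17, edgeR adjusted p = 0.00216). Dnajc11 (chromosome 4, 151933720 to 151981959), which helps hold the cristae in shape, had 83.2 and 77.5 CPM with shGrhl3, against 58.8 and 60.1 CPM with shNT (log2 fold change 0.44, SE 0.09, edgeR adjusted p = 0.000898). Both shGrhl3 libraries were the higher ones for each gene. Dnajc30, a mitochondrial protein that interacts with the respiratory machinery, also passed, with 13.3 and 12.7 CPM with shGrhl3 and 9.77 and 9.51 CPM with shNT (log2 fold change 0.43, edgeR adjusted p = 0.0445). Its groups did not overlap, but its call was lost under 7 of the 13 alternatives, each single library left out among them. Dnajc19, part of the import motor, had 16.9 and 14.1 CPM with shGrhl3 and 12.1 and 12.9 CPM with shNT and did not pass (log2 fold change 0.31, SE 0.15, edgeR adjusted p = 0.122).

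**Figure D2:**
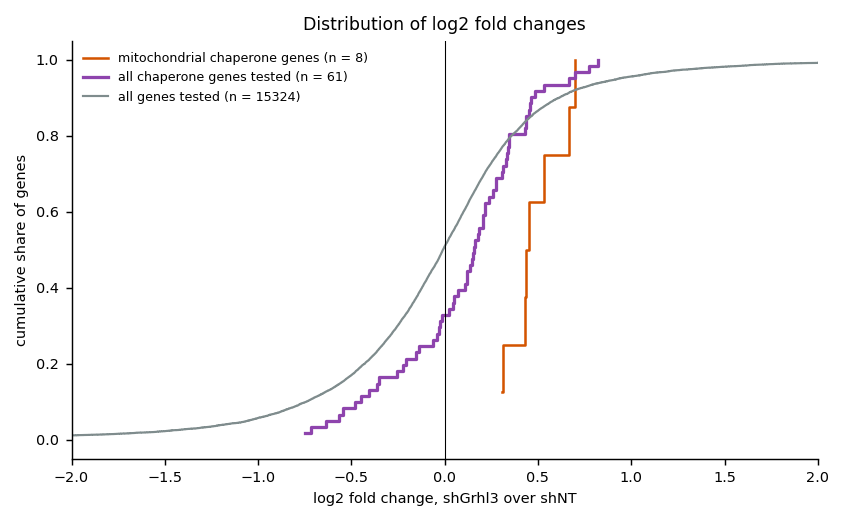
The cumulative share of genes (y axis) is drawn against the log2 fold change of shGrhl3 over shNT (x axis, cut at 2 in either direction) for the 8 mitochondrial members, all 61 tested members and all 15324 tested genes. The line of the mitochondrial members, which were grouped after their values had been seen, starts at 0.31, where the line of all genes has already passed most of its rise; the medians are 0.44, 0.16 and -0.01.

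Outside the mitochondrial and endoplasmic reticulum lists, 51 members remained and 45 were tested, of which 9 rose and 7 fell. Their called share, 35.6%, lay close to the 35.0% of all genes, and their median log2 fold change was 0.11. Both values depend on those lists, which may be incomplete.

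The constitutive Hsp70 rose slightly while an inducible one fell. Hspa8 (Hsc70; chromosome 9, 40801276 to 40805202), the everyday Hsp70 of the cytosol, had 435 and 403 CPM with shGrhl3, against 370.2 and 351 CPM with shNT. The groups did not overlap, and the rise of 0.21 on the log2 scale (SE 0.08) passed narrowly (edgeR adjusted p = 0.0413). Hspa8 no longer passed without shGrhl3 replicate 1 (edgeR adjusted p = 0.140), without shNT replicate 1 (0.139), without shNT replicate 2 (0.331) or with the replicate number as a block (0.0914). Hspa1b (chromosome 17, 34956429 to 34959238), a stress-inducible Hsp70 that is kept low in unstressed cells, was at 3.19 and 5.73 CPM with shGrhl3, against 6.27 and 8.38 CPM with shNT. Its counts were 64 and 107 with shGrhl3 and 120 and 133 with shNT, and every shGrhl3 value was the lower (log2 fold change -0.71, SE 0.26, edgeR adjusted p = 0.0406). The size of this fall hangs on shGrhl3 replicate 1: without it the log2 fold change was -0.35 (edgeR adjusted p = 0.365), and without shGrhl3 replicate 2 it was -1.18. The call was also lost without shNT replicate 2 (-0.50, edgeR adjusted p = 0.239) and in DESeq2 (adjusted p = 0.107).

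Hspa1a (chromosome 17, 34969359 to 34972156), the near-identical neighbour of Hspa1b, had 32 and 40 counts with shGrhl3, against 48 and 47 with shNT, and did not pass (log2 fold change -0.55, SE 0.37, edgeR adjusted p = 0.266). The sources used here do not say how reads that fit both genes were shared out, so the pair is best read through its sum, 4.79 and 7.87 CPM with shGrhl3 against 8.78 and 11.3 CPM with shNT. Their promoter windows match at 296 of 300 positions and carry the same 2-unit element, spelled GAANNTTC, in capitals below, which is shown because these are the family's best known stress-inducible genes.
Hspa1a (minus strand, chr17:34972233-34972280): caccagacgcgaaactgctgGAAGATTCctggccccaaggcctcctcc
Hspa1b (minus strand, chr17:34959315-34959362): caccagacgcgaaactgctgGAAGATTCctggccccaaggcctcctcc
Hspa1l, the third gene of this cluster, had 15 and 6 counts with shGrhl3 and 8 and 2 with shNT, too few to test.

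Of the atypical Hsp70s, Hspa12a (chromosome 19, 58795750 to 58943672) fell, with 6.28 and 6.85 CPM with shGrhl3 against 9.98 and 9.45 CPM with shNT. Its groups did not overlap (log2 fold change -0.57, SE 0.19, edgeR adjusted p = 0.0246), but the call was lost without shGrhl3 replicate 1, without either shNT library and in DESeq2. Hspa12b, Hspa14 and Hspa2 did not pass, at log2 fold changes of 0.18, 0.18 and 0.11. Among the Hsp110 proteins, which recharge Hsp70, Hspa4 (Apg-2; chromosome 11, 53259814 to 53300479) rose to 511 and 483 CPM with shGrhl3, against 404 and 418 CPM with shNT (log2 fold change 0.27, SE 0.08, edgeR adjusted p = 0.00883). Both shGrhl3 libraries lay above both shNT libraries, and the call was lost without shNT replicate 1 (edgeR adjusted p = 0.147) or replicate 2 (0.0700). Hsph1 (Hsp105), the heat-inducible member, had 95.7 and 104 CPM with shGrhl3 and 82.6 and 99.6 CPM with shNT, overlapping values that did not pass (log2 fold change 0.13, edgeR adjusted p = 0.318). Hspa4l stood at -0.02 on the log2 scale.

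Of the 2 cytosolic Hsp90 genes, the inducible one rose and the constitutive one did not pass, and both outcomes changed when single libraries were left out. Hsp90aa1 (chromosome 12, 110691036 to 110696395), the inducible form, had 799 and 696 CPM with shGrhl3, against 622 and 627 CPM with shNT. The shGrhl3 libraries were both higher yet spread more widely than the shNT libraries (log2 fold change 0.26, SE 0.08, edgeR adjusted p = 0.0162). Without shGrhl3 replicate 1 the value was 0.16 (edgeR adjusted p = 0.130), and without shNT replicate 1 or 2 the adjusted p was 0.140 or 0.119. Hsp90ab1 (chromosome 17, 45567778 to 45573261), the constitutive form, had 1245 and 1110.2 CPM with shGrhl3, against 1276 and 1342 CPM with shNT. Its shGrhl3 values were the lower ones, but the difference did not pass (log2 fold change -0.15, 95% interval -0.32 to 0.01, edgeR adjusted p = 0.151). Without shGrhl3 replicate 1 Hsp90ab1 passed as lower (-0.24, edgeR adjusted p = 0.0199), and over all alternatives its value ran from -0.24 to -0.06. As a ratio within each library, Hsp90aa1 over Hsp90ab1 was 0.641 and 0.627 with shGrhl3, against 0.487 and 0.467 with shNT, while the summed level of the pair overlapped at 2043 and 1806 CPM with shGrhl3 and 1898 and 1969 CPM with shNT. No test was run on the ratio or the sum.

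Hspb7 and Hspb8, small heat shock proteins of muscle, rose, and no member of that family fell. Calls in either direction made up 28.6% of its tested members, against 35.0% of all genes, and higher calls 28.6%, against 17.1%. Hspb7 (chromosome 4, 141420779 to 141425310), the cardiovascular small heat shock protein that binds filamin C, had 462 and 456 CPM with shGrhl3, against 332 and 334 CPM with shNT. The libraries of each group nearly coincided (log2 fold change 0.46, SE 0.08, edgeR adjusted p = 6.06e-05), and the call held under all 13 alternatives. Hspb8 (chromosome 5, 116408491 to 116422864), which works with Bag3 to clear damaged filamin by autophagy, had 113 and 102 CPM with shGrhl3, against 72.6 and 86.5 CPM with shNT. Its groups did not overlap (log2 fold change 0.43, SE 0.10, edgeR adjusted p = 0.00134), though without shNT replicate 1 the call was lost (0.31, edgeR adjusted p = 0.0761). The other tested genes of the Hspb series, taken by name alone, did not pass. They were Hspb1 (Hsp27), Hspb2, Hspb6, Hspb9 and Hspb11, with log2 fold changes between -0.35 (Hspb9) and 0.21 (Hspb11). Over all 8 listed the sum was 806 and 771 CPM with shGrhl3, against 613 and 617 CPM with shNT. Cardiomyocyte marker sums were higher in the same shGrhl3 libraries, at 7098 and 7196 CPM, against 5632 and 5616 CPM with shNT, and their part in the rise of the muscle chaperones was not tested.

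With all 4 libraries neither Hsp-binding member passed in edgeR, nor at an unadjusted p under 0.05. Hspbp1, a nucleotide exchange factor of Hsp70, had 21.8 and 17.3 CPM with shGrhl3 and 12.6 and 18.6 CPM with shNT, with overlapping groups (log2 fold change 0.34, SE 0.17, edgeR adjusted p = 0.147). Its value ran from 0.07 to 0.64 over the alternatives, and it passed as higher without shGrhl3 replicate 2 and without shNT replicate 2 (lowest edgeR adjusted p = 0.00437). Hspbap1 stood at 0.02 on the log2 scale.

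**Figure D3:**
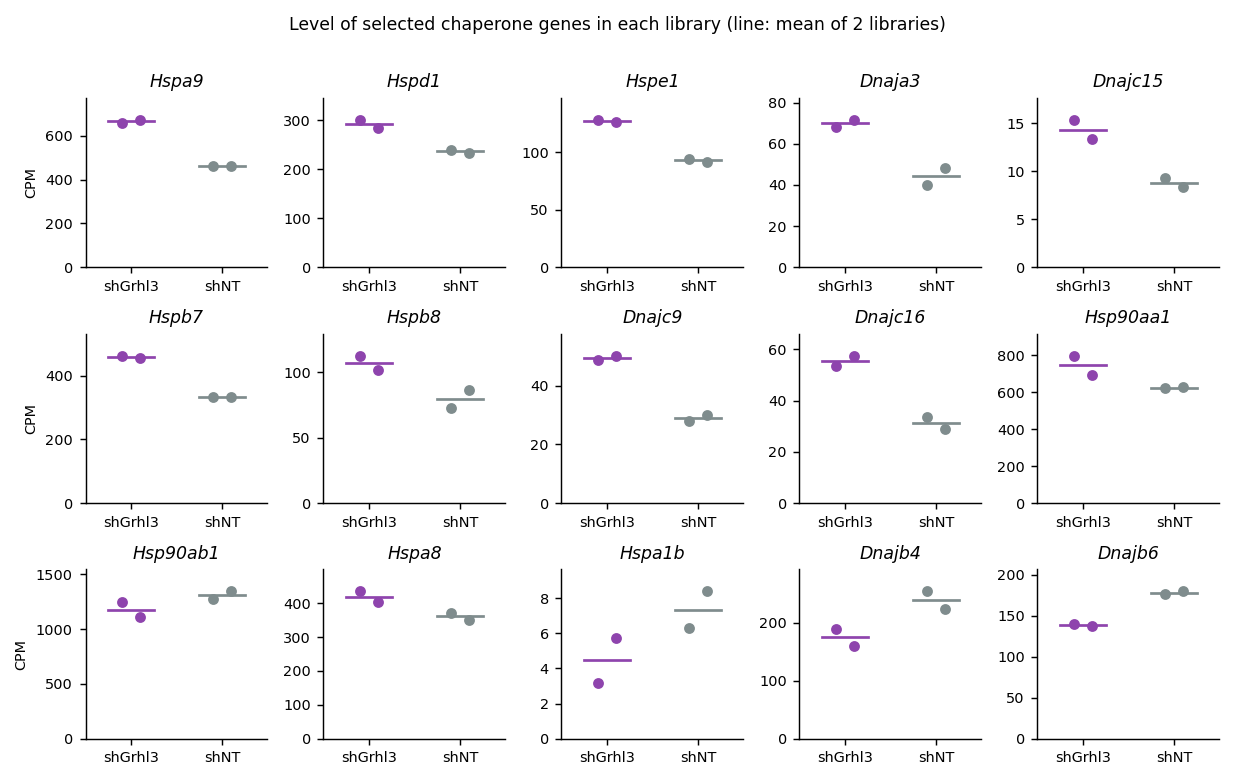
CPM of 15 chaperone genes in each library (y axes start at 0 and differ between panels), shGrhl3 left in purple and shNT right in grey, with a line at the mean of the 2 libraries. The panels are a selection, and the groups are apart in each of them. They were apart in 43 of the 61 tested members and in 10191 of the 15324 genes tested in all. The gaps are wide against the spread for Hspa9, Hspb7, Hspe1 and Dnajc9 and narrow for Hspa1b, Hsp90ab1, Hsp90aa1 and Hspa8.

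Cytosolic DnaJ proteins moved in both directions. Among the type A proteins, which work with Hsp70 in general folding, Dnaja2 (chromosome 8, 85537633 to 85555361), the most abundant by CPM, had 293 and 292 CPM with shGrhl3 and 272 and 284 CPM with shNT and did not pass (log2 fold change 0.07, 95% interval -0.09 to 0.24, edgeR adjusted p = 0.515). Dnaja1 and Dnaja4 also did not pass (-0.01 and -0.14), which left the mitochondrial Dnaja3 as the only called member of that type.

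In type B, 3 of 8 tested genes rose and 2 fell, a called share of 62.5% against the 35.0% of all genes. Dnajb1 (Hsp40; chromosome 8, 83608175 to 83612653), the heat-inducible partner of Hsp70, had 62.9 and 58.3 CPM with shGrhl3, against 49.9 and 45.6 CPM with shNT (log2 fold change 0.34, SE 0.10, edgeR adjusted p = 0.0104). Dnajb5, a type B protein expressed in heart, had 68.2 and 54.1 CPM with shGrhl3, against 45.4 and 51.5 CPM with shNT (log2 fold change 0.34, edgeR adjusted p = 0.0244). In neither did the groups overlap, but Dnajb1 lost its call without shNT replicate 2 (0.28, edgeR adjusted p = 0.140), and Dnajb5 without shGrhl3 replicate 1 (0.16, 0.325), without shNT replicate 1 (0.25, 0.207) and in DESeq2 (adjusted p = 0.0564). Dnajb4 (chromosome 3, 152181580 to 152210432), a close relative of Dnajb1, fell to 189.7 and 160.2 CPM with shGrhl3, against 254 and 224 CPM with shNT (log2 fold change -0.45, SE 0.09, edgeR adjusted p = 0.00059). Dnajb6 (chromosome 5, 29735898 to 29786478), which keeps aggregation-prone proteins apart and whose mutation in humans causes a limb girdle muscular dystrophy, fell to 139.8 and 138 CPM with shGrhl3, against 177 and 179.7 CPM with shNT (log2 fold change -0.36, SE 0.08, edgeR adjusted p = 0.00146). For both genes each shGrhl3 library was below each shNT library, and both calls held under all 13 alternatives. Dnajb2 and Dnajb14 had positive values that did not pass (0.21 and 0.24); Dnajb2 passed without shGrhl3 replicate 2 (edgeR adjusted p = 0.0494), and Dnajb14 without shGrhl3 replicate 1 and without shNT replicate 1 (lowest edgeR adjusted p = 0.0200). Dnajb3, at 0.399 and 1.45 CPM with shGrhl3 and 0.523 and 1.39 CPM with shNT, was too low to place (95% interval -1.37 to 1.30).

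Dnajb6 and Hsph1 are the remaining members with a 3-unit element. That of Hsph1 lies after its annotated starts and is not printed, and that of Dnajb6 is printed since it stands before a gene that fell, unlike the shared element of Hspd1 and Hspe1. The capitals mark it, 5′ to 3′ on the gene's strand.
Dnajb6 (plus strand, chr5:29735832-29735884): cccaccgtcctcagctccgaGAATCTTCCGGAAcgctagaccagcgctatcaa
RefSeq windows were found for 54 of the 67 members, 71 windows in all. A 3-unit element was in 6 of the 71 (8.45%), from 4 genes, against 198 of 32841 windows of all genes (0.603%). The 6 count some elements more than once: Hspd1 and Hspe1 share theirs, and the windows of Dnajb6 overlap each other, as do those of Hsph1. By gene, 4 of the 54 had one, against 179 of 27018 genes in all. A 2-unit element, spelled GAANNTTC or TTCNNGAA and contained in every longer one, was in 17 of the 71 (23.9%), against 15.1% of all windows. By gene the 2-unit element was found in 15 of the 54 members with a window, against 4587 of 27018 genes in all. It was in 3 of the 14 higher members, in 4 of the 6 lower ones and in 7 of the 29 that did not pass, besides Hspb3, which was not tested. These counts by call are small and were not tested.

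Type C, the most varied DnaJ class, held the largest rises. Dnajc16 (chromosome 4, 141761998 to 141790644), a DnaJ protein of the endoplasmic reticulum membrane, had 53.7 and 57.5 CPM with shGrhl3, against 33.8 and 29.1 CPM with shNT (log2 fold change 0.82, SE 0.11, edgeR adjusted p = 3.19e-06). Dnajc9 (chromosome 14, 20384638 to 20388910), a nuclear co-chaperone that brings Hsp70 to histones, had 49.0 and 50.3 CPM with shGrhl3, against 28.1 and 30.1 CPM with shNT (log2 fold change 0.77, SE 0.11, edgeR adjusted p = 5.86e-06). Dnajc16 was 1.77-fold and Dnajc9 1.71-fold higher, the shGrhl3 libraries were clear of the shNT libraries, and both calls held under all 13 alternatives. Dnajc25 had 57.1 and 55.5 CPM with shGrhl3, against 42.7 and 47.0 CPM with shNT (log2 fold change 0.33, edgeR adjusted p = 0.0146), a rise lost without shNT replicate 1 (0.26, edgeR adjusted p = 0.187).

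Dnajc27, Dnajc24 and Dnajc5 of type C fell. Dnajc27, which joins a DnaJ domain to a Rab-like GTPase, had 7.08 and 6.48 CPM with shGrhl3, against 10.6 and 10.5 CPM with shNT (log2 fold change -0.63, edgeR adjusted p = 0.0104). Dnajc24, an enzyme partner in making diphthamide on the elongation factor of translation, had 11.4 and 12.6 CPM with shGrhl3, against 16.6 and 15.2 CPM with shNT (log2 fold change -0.40, edgeR adjusted p = 0.041). Dnajc5, the cysteine string protein of secretory vesicles, had 147 and 143 CPM with shGrhl3, against 172 and 168 CPM with shNT (log2 fold change -0.23, edgeR adjusted p = 0.038). The groups of all 3 were apart, yet Dnajc24 and Dnajc5 each lost their call under 7 of the 13 alternatives, and Dnajc27 without shGrhl3 replicate 2 (edgeR adjusted p = 0.0563) and without shNT replicate 1 (0.0511). Dnajc6 (auxilin), which uncoats clathrin vesicles, had the lowest fitted value of any member, -0.75, at 1.60 and 1.71 CPM with shGrhl3 and 2.61 and 2.96 CPM with shNT, and did not pass (edgeR adjusted p = 0.121).

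The 8 members listed for the endoplasmic reticulum had a median log2 fold change of 0.23. Calls in either direction made up 37.5% of them, against 35.0% of all genes, and higher calls 37.5%, against 17.1%. Of the 8, 3 rose and none fell. Beside Dnajc16 these were Dnajb12 (chromosome 10, 59879583 to 59899296), which takes part in the disposal of misfolded membrane proteins, and Dnajc14, a membrane DnaJ protein. Dnajb12 had 61.4 and 61.9 CPM with shGrhl3, against 48.3 and 49.0 CPM with shNT (log2 fold change 0.34, SE 0.10, edgeR adjusted p = 0.0084). Dnajc14 had 101 and 106 CPM with shGrhl3, against 82.0 and 90.0 CPM with shNT (log2 fold change 0.27, edgeR adjusted p = 0.0227). Neither gene's groups overlapped; leaving out shNT replicate 1 ended both calls (edgeR adjusted p = 0.0756 for Dnajb12 and 0.279 for Dnajc14), and the Dnajb12 call was also lost without shNT replicate 2 (0.0546). Dnajc10 (ERdj5; chromosome 2, 80315446 to 80354055), a disulfide reductase and the most abundant type C member by CPM, had 272 and 273 CPM with shGrhl3 and 271 and 254 CPM with shNT (log2 fold change 0.05, 95% interval -0.12 to 0.22, edgeR adjusted p = 0.667). Hspa13, Dnajb14 and Dnajc1 also had positive values that did not pass, and Dnajc18 a negative one (-0.26, edgeR adjusted p = 0.0663). The endoplasmic reticulum list may be incomplete too, and its shares and median depend on it. Dnajc25 (0.33), for instance, was not put on it and passed as higher.

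The other 6 members had too few counts to test. Dnajb8, known from testis, had no count in any library, which allows up to 0.150 CPM in the deepest library and 0.189 CPM in the shallowest (3 counts, counting error only). Dnajb13, a protein of cilia and sperm flagella, had 12 and 9 counts with shGrhl3 and 2 and 1 with shNT. Dnajb7 had 0 and 4 with shGrhl3 and 0 and 1 with shNT, Dnajc22 had 0 and 1 with shGrhl3 and 7 and 0 with shNT, and Hspb3, a small heat shock protein of muscle, had 0 and 2 with shGrhl3 and 0 in both shNT libraries. Hspa1l, given above, is the remaining one. The 35 members that were tested and did not pass had log2 fold changes between -0.75 and 0.49 and adjusted p-values between 0.0576 and 0.976.

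Summed over all 67 members, the chaperone genes took 7938 and 7526 CPM with shGrhl3, against 6986 and 7065 CPM with shNT (means 7732 ± 291 and 7026 ± 56.0, SD, n = 2 each). As a share of all counts this was 0.803% and 0.756% with shGrhl3, against 0.694% and 0.697% with shNT. Both shGrhl3 libraries were above both shNT libraries, and the sum was not tested. Of it, Hsp90ab1 alone made up 15.7% and 14.8% with shGrhl3 and 18.3% and 19.0% with shNT, while Hspa9 made up 8.32% and 8.93% with shGrhl3 and 6.59% and 6.52% with shNT.

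The regulators and partners of the chaperones, 50 genes in 5 lists, were called about as often as all genes. Of 48 tested, 12 rose and 5 fell, a called share of 35.4%, with a median log2 fold change of 0.15. Without shNT replicate 1 the higher count was 4, and without shNT replicate 2 it was 6. Of the 5 heat shock factors, 3 were deep enough to test, and with all 4 libraries none passed in edgeR, nor at an unadjusted p under 0.05. Hsf1, the main heat shock regulator, had 31.8 and 35.3 CPM with shGrhl3 and 32.2 and 35.5 CPM with shNT (log2 fold change -0.01, 95% interval -0.25 to 0.22, edgeR adjusted p = 0.945). Hsf2 stood at 0.04 on the log2 scale. Hsf4, at 51 and 19 counts with shGrhl3 and 43 and 50 with shNT, stood at -0.58, with values from -1.39 to -0.07 over the alternatives, and passed as lower without shGrhl3 replicate 1 (-1.39, edgeR adjusted p = 0.0352). Hsbp1, a small protein that binds Hsf1 and holds back its activity, fell to 94.8 and 84.1 CPM with shGrhl3, against 122 and 131 CPM with shNT, without overlap (log2 fold change -0.50, SE 0.09, edgeR adjusted p = 0.000165).

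Among these partners, the Hsp90 co-chaperones held the largest difference. Unc45b (chromosome 11, 82911253 to 82943406), the striated muscle chaperone that folds myosin heads together with Hsp90, had 39.6 and 38.9 CPM with shGrhl3, against 9.88 and 8.19 CPM with shNT. It was 4.33-fold higher (log2 fold change 2.11, SE 0.14, edgeR adjusted p = 5.52e-11) and kept its call under all 13 alternatives. Its widely expressed paralog Unc45a had 53.5 and 50.2 CPM with shGrhl3 and 57.7 and 54.8 CPM with shNT and did not pass (-0.12), and the ratio of Unc45b to Unc45a was 0.742 and 0.774 with shGrhl3, against 0.171 and 0.149 with shNT. Myh6, a myosin of heart muscle, was at 241 and 261 CPM in the same shGrhl3 libraries and at 20.4 and 20.8 CPM with shNT, and its part in the Unc45b result was not tested. Stip1 (Hop), which hands clients from Hsp70 to Hsp90, fell to 82.0 and 72.7 CPM with shGrhl3, against 114 and 121 CPM with shNT (log2 fold change -0.60, SE 0.09, edgeR adjusted p = 2e-05). Cdc37l1 and Sugt1 rose, at 0.37 and 0.26 on the log2 scale, and the other 12 of the 16 did not pass. Cdc37l1 lost its call without shNT replicate 2 (edgeR adjusted p = 0.0648). Sugt1 lost its call under 5 of the 13 alternatives, 3 single libraries left out among them, with the replicate block (edgeR adjusted p = 0.0696) and in DESeq2 (adjusted p = 0.0659).

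Of 11 co-chaperones of Hsp70, 1 rose and 3 fell, a called share of 36.4% that lay close to the 35.0% of all genes. Bag2, which slows the disposal of Hsp70 clients, had 23.7 and 20.5 CPM with shGrhl3, against 38.5 and 39.7 CPM with shNT (log2 fold change -0.82, SE 0.12, edgeR adjusted p = 8.78e-06). St13 (Hip), which steadies the closed state of Hsp70, had 206 and 204 CPM with shGrhl3, against 264 and 258 CPM with shNT (log2 fold change -0.35, SE 0.08, edgeR adjusted p = 0.00162). Both fell without overlap between groups and under every alternative tried. Sil1, an exchange factor of the endoplasmic reticulum, also fell (-0.36) and Bag1 rose (0.26), while Bag3, the partner of Hspb8, did not pass (0.09, edgeR adjusted p = 0.459). The Sil1 call was lost without shNT replicate 2 (edgeR adjusted p = 0.158) and in DESeq2 (adjusted p = 0.0568), and that of Bag1 without shGrhl3 replicate 1 (edgeR adjusted p = 0.0961), without shNT replicate 1 (0.214) and without shNT replicate 2 (0.0575).

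Subunits of TRiC, the cytosolic chaperonin that folds actin and tubulin, stood at or above 0 throughout. Of the 8, 5 rose (Tcp1, Cct3, Cct4, Cct5 and Cct8), 3 did not pass and the median log2 fold change was 0.24. Higher calls made up 62.5%, against 17.1% of all genes, and calls in either direction 62.5%, against 35.0%. Tcp1 had 353 and 346 CPM with shGrhl3, against 274 and 287 CPM with shNT (log2 fold change 0.32, SE 0.08, edgeR adjusted p = 0.00303). Cct7 alone had groups that overlapped, at 0.00. Over all genes the groups lay apart in 10191 of 15324. Each of the 5 calls was lost without shNT replicate 1, with edgeR adjusted p-values between 0.0662 for Cct4 and 0.183 for Cct5. For Tcp1 and Cct3 this was the only alternative that ended the call. Cct4 also lost its call without shNT replicate 2 (edgeR adjusted p = 0.0527), and Cct5 and Cct8 without shNT replicate 2 (0.132 and 0.187), without shGrhl3 replicate 1 (0.135 and 0.121) and with the replicate block (0.0614 and 0.0689).

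Among 9 chaperones whose names fall outside the rule, 3 rose and none fell. Higher calls made up 33.3%, against 17.1% of all genes, and calls in either direction 33.3%, against 35.0%. Cryab (alpha B-crystallin; chromosome 9, 50745951 to 50756636), a small heat shock protein of muscle and lens, had 1235 and 1151 CPM with shGrhl3, against 727 and 715 CPM with shNT (log2 fold change 0.73, SE 0.08, edgeR adjusted p = 1.44e-07). Hspb2 lies within the RefSeq span of Cryab, and reads of the 2 may not be told apart if strand was not used. Hspb2 was at 52.4 and 48.2 CPM with shGrhl3 and 46.6 and 43.4 CPM with shNT and did not pass (0.16). Serpinh1 (Hsp47), the collagen chaperone of the endoplasmic reticulum, had 1756 and 1654 CPM with shGrhl3, against 1007 and 1074 CPM with shNT (log2 fold change 0.71, SE 0.08, edgeR adjusted p = 2.2e-07). Col1a1, a collagen it serves, was at 5667 and 6499.7 CPM in the same shGrhl3 libraries and at 4242 and 4159 CPM with shNT. The other collagens among the fibroblast markers, Col1a2 (0.16, edgeR adjusted p = 0.116) and Col3a1 (-0.15, edgeR adjusted p = 0.182), did not pass. The part of collagen levels in the Serpinh1 rise was not tested. Trap1, the Hsp90 of mitochondria, had 104 and 102 CPM with shGrhl3, against 83.7 and 86.6 CPM with shNT (log2 fold change 0.28, SE 0.09, edgeR adjusted p = 0.0175), a call lost without shNT replicate 1 (edgeR adjusted p = 0.169) or replicate 2 (0.0857).

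**Figure D4:**
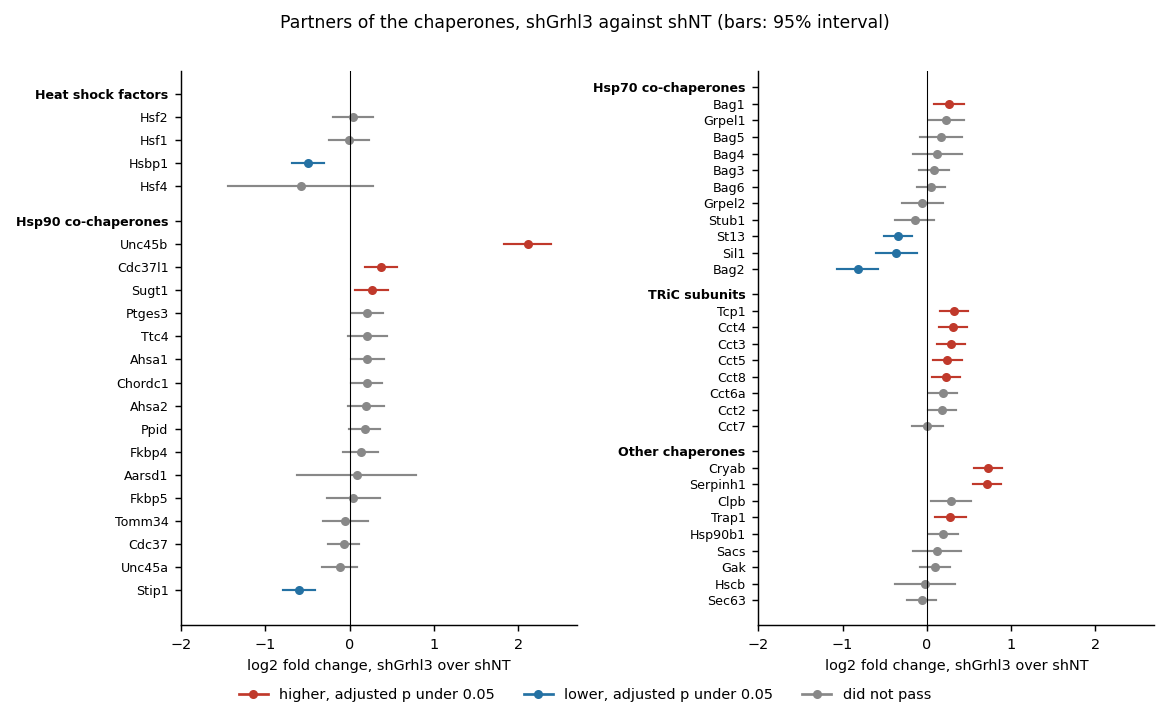
The log2 fold change, shGrhl3 over shNT (x axis), with its 95% interval as a bar, is drawn for the 48 tested regulators and partners by list, red for higher (12), blue for lower (5) and grey for genes that did not pass. Unc45b stands far to the right at 2.11, Bag2 is lowest at -0.82, and all 8 TRiC subunits lie at or right of 0.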

How the data were processed

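RNA-seq was read from the deposited table of raw counts per gene, which the authors made and which holds whole numbers with no normalization found in them. The tools named, per the submitters' processing notes, are HISAT2 2.0.1, Bowtie2 2.2.6, ChIPseeker, MACS2 and cutadapt 1.9.1, on mm10. The sources used here do not give the counting program, annotation, strand setting or handling of reads with several hits, so counts of near-identical copies and of overlapping genes are uncertain: 28 of the 67 members overlap another RefSeq gene. Of 55359 rows, 1438 name no gene and were left out (0.00432% to 0.00872% of a library's counts). The 4 CUT&Tag samples were not analysed here.

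Genes were filtered with filterByExpr (minimum count 10), scaled with TMM factors and tested in edgeR 4.0.16 (R 4.3.3) with a robust quasi-likelihood fit over the 4 libraries without covariates. Tests are two-sided, with Benjamini-Hochberg adjustment over the 15324 genes and a threshold of 0.05. The SE of a log2 fold change comes from the F statistic, and intervals are 95% intervals. CPM compares a gene between libraries, not genes with each other, since no transcript lengths were used. Library totals run from 16104243 to 19823397 counts, which makes genes of a few CPM the least precise. The libraries of a group differed beyond sampling noise (chi-square per degree of freedom 9.18 with shGrhl3 and 15.2 with shNT). The fitting steps were tested on simulated data. DESeq2 1.42.0 and limma 3.58.1 (voom) served as alternatives, besides other scalings and filters, summed duplicate symbols, rRNA-related genes left out, the replicate number as a block and each library left out.

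The members, the lists of partners and of cell type markers, and the compartments were chosen with earlier results of these data known, and the compartments after the present values were seen. All called members are named. Per-library values are given for up to 4 called members of each family with the lowest p and for its most abundant one, and for up to 3 called genes of each partner list. Unc45a, Bag3, Hsf1, Hsf2, Hsf4, Hspb2, Myh6, Col1a1, Col1a2, Col3a1 and members that did not pass are named to complete a pair, a family or a role. Gene positions and promoter sequences are RefSeq's on GRCm38.p6.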

Additional observations from a re-analysis of the deposited data

How the results depend on the processing

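No called member or partner gene changed sign under the 13 alternatives, while some of those not called did, such as Dnajc21 (-0.12 to 0.41), Dnajc17 (-0.11 to 1.42), Dnajb3 (-1.20 to 0.80) and Dnajc13 (-0.18 to 0.06). Of the 26 called members, 10 kept their call under all of them (Dnaja3, Dnajb4, Dnajb6, Dnajc9, Dnajc11, Dnajc15, Dnajc16, Hspa9, Hspb7 and Hspe1) and 16 lost it under at least 1, while 6 members not called gained one. Leaving out each library in turn, the members called higher numbered 11 to 21 (19 with all libraries) and those called lower 3 to 5 (7 with all). The partner genes called higher numbered 4 to 16 (12 with all). DESeq2 called 17 members higher and 3 lower, and the cause of the smaller count was not tested. Where a group is left with 1 library, that library is assumed to vary like the other group's. Over all genes, too, fewer were called in each direction whichever single library was left out. Deviations from the group means were almost uncorrelated between same-numbered libraries (-0.0605). At 2 libraries a group this cannot tell whether same-numbered libraries were made together. With the replicate block 17 members were higher and 5 lower, and 9 partner genes were higher and 5 lower. The members' median log2 fold change ran from 0.11 to 0.20 over the alternatives. Depth limits members of a few CPM, such as Hspa1a, Hspa1b, Dnajb3, Dnajc6 and Dnajc17, whose intervals are wide.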

Other observations

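The 4 chaperones of the endoplasmic reticulum that the naming rule leaves out are classic targets of the unfolded protein response. Hspa5 (BiP) had 1036 and 969 CPM with shGrhl3, against 853 and 834 CPM with shNT, and rose (log2 fold change 0.25, SE 0.08, edgeR adjusted p = 0.015). Dnajb11 had 227 and 198 CPM with shGrhl3, against 168 and 179.8 CPM with shNT, and rose as well (log2 fold change 0.29, SE 0.09, edgeR adjusted p = 0.0131). Dnajb9 (-0.13) and Dnajc3 (0.19) did not pass. Hsp90b1 (Grp94), the Hsp90 of the same compartment, had 1102 and 928 CPM with shGrhl3 and 902 and 869.7 CPM with shNT and did not pass (edgeR adjusted p = 0.0773).

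The table also holds pseudogenes of the Dnaj family, among them Dnajb6-ps, which passed the test in the direction of Dnajb6. Dnajb6-ps had 196 and 199 counts with shGrhl3, against 354 and 218 with shNT (log2 fold change -0.66, edgeR adjusted p = 0.00334). Whether reads were shared between Dnajb6-ps and Dnajb6 was not tested.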
